A study of Mus musculus with 28 samples.

Results

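Apolipoproteins and the genes that load them with fat were followed through 28 bulk RNA sequencing libraries of sorted mouse medullary thymic epithelial cells (mTECs), which transcribe genes of many other organs. The set held 9 genes of 55011 in the count table, chosen by name: Apoa1, Apoa4, Apoc3, Apoa2, Apob, Apoe, Apoh, Mttp and Apobec1. All 9 were measured and passed the filter on low counts in every comparison.

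The libraries fell into 8 groups. All mice were C57BL/6. Wild-type thymus gave Entero-hepato mTEC (n = 3) and Non-entero-hepato mTEC (n = 3), called here the entero-hepato gate and the gate outside it; the labels name no markers of this sort. All other mice carried 1 copy of Foxn1cre, which drives recombination in thymic epithelium, both cortical and medullary. The double mutant was Foxn1cre(+/-) Hnf4a fl/fl Hnf4g -/-, and it was sorted as mTEChi (n = 4) and as Post-Aire mTEClo (n = 4). The Hnf4a-removed mTEClo were Hnf4a fl/fl Hnf4g +/- (n = 3) and the Hnf4g-removed mTEClo were Hnf4a fl/+ Hnf4g -/- (n = 3). Their control was Hnf4a fl/+ Hnf4g +/-, sorted as mTEChi (n = 4) and mTEClo (n = 4), so the controls also carried 1 floxed Hnf4a and 1 Hnf4g-null allele, and the Hnf4g alleles do not depend on Cre. The labels give no age.

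Apolipoproteins are the protein part of the particles that carry fat and cholesterol in blood. In enterocytes and hepatocytes, MTTP loads lipid onto APOB to build chylomicrons or very low density lipoproteins, APOBEC1 edits the APOB transcript to give the short gut form of the protein, and APOA1, APOA4, APOA2, APOC3 and APOE exchange between particles and set how these are cleared. HNF4A and HNF4G are paralogous nuclear receptors of gut and liver, and the APOA1, APOC3, APOA4 region is a textbook target of HNF4A in liver and intestine.

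Apoa1, Apoc3 and Apoa4 lie side by side on mouse chromosome 9 (GRCm38): Apoa1 at chr9:46228580-46230466 on the plus strand, Apoc3 at chr9:46232933-46235636 on the minus strand and Apoa4 at chr9:46240696-46243459 on the plus strand. The gaps are 2466 bases between Apoa1 and Apoc3 and 5059 bases between Apoc3 and Apoa4. The others stand on chromosomes 1 (Apoa2), 12 (Apob), 7 (Apoe), 11 (Apoh), 3 (Mttp) and 6 (Apobec1). The kit does not mark strand. Apoa4 overlaps the antisense models Gm10680 and Gm47528, Apoh overlaps Prkca and Mttp overlaps Trmt10a and Gm43691, all on the opposite strand, and Gm11656 lies inside Apoh, so reads in shared stretches cannot be assigned to 1 of the genes.

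RefSeq promoter windows (GRCm38.p6, 250 bases before to 50 after the start) were given for 8 of the 9 genes. They were searched on both strands for CAAAGTCCA, CAAAGGTCA and the looser CAAAGNNCA, which contains both and follows the core letters that HNF4 proteins bind. No window of a member held either strict form, which 0.555% and 0.544% of all 27025 genes with a window held. The loose form was in a window of 4 of the 8 genes, Apoa4, Apobec1, Apob and Apoh, and in none of Apoa1, Apoa2, Apoe or Mttp, against 7.27% of all genes with a window. The Mttp window lies at 1 of 3 annotated starts of that gene, and the RefSeq start of Apoa4 lies 148 bases downstream of the gene start given above, so the windows do not cover every start. Shown are the windows of Apoa4 and Apobec1, which hold the same letters, of Apob, whose match reads on the minus strand, and of Apoa1, which had none; capitals mark the match.
Apoa4 promoter, chr9:46240594-46240893, plus strand: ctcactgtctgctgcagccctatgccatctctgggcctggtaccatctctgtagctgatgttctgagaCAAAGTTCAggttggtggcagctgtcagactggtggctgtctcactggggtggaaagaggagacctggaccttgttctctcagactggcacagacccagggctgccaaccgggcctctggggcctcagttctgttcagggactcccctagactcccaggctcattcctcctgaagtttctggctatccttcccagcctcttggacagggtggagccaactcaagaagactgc
Apobec1 promoter, chr6:122602395-122602694, minus strand: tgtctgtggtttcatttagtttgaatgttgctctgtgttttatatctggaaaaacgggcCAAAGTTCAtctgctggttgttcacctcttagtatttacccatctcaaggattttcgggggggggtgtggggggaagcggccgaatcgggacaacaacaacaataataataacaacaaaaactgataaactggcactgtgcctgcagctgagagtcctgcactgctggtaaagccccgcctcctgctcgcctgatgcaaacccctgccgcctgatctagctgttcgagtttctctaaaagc
Apob promoter, chr12:7977427-7977726, plus strand: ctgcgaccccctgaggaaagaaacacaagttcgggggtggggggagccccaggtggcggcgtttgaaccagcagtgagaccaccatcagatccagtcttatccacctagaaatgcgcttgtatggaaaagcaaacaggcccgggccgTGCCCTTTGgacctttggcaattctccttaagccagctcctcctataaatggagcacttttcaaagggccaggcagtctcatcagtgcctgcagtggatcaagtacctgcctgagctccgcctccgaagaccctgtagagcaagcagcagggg
Apoa1 promoter, chr9:46228380-46228679, plus strand: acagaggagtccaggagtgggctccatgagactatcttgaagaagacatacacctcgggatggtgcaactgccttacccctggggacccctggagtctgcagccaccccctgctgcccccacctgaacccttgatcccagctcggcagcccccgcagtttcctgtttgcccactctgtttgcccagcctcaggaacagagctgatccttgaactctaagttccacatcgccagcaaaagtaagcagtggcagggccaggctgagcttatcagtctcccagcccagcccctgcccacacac
The match begins 182 bases before the RefSeq start in Apoa4, which is 34 bases before the gene start given above, 191 before it in Apobec1 and 103 before it in Apob. A match is a string of letters and not a shown binding site.

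Values below are CPM, read counts relative to library size, with sizes scaled by the trimmed mean of M values (TMM). Total counts were 4330120 to 8342583 per library. A gene was called when its adjusted p was under 0.05 by edgeR's quasi-likelihood test with Benjamini-Hochberg adjustment over all genes tested. This test gives no standard error. The SE beside an edgeR log2 fold change is the size of that change divided by the square root of the test's F statistic. Hnf4g was at 5.21 to 12.9 CPM in double-mutant mTEChi against 15.3 to 22.5 in control mTEChi, and at 3.20 to 8.32 against 9.03 to 15.7 in mTEClo, with no overlap, but neither difference passed (edgeR adjusted p = 0.0862 and 0.0633). Hnf4a was at 1.51 to 7.01 CPM in double-mutant and 1.02 to 7.42 in control mTEChi, and at 2.25 to 4.23 against 2.26 to 6.88 CPM in mTEClo, so counts over the whole gene do not show its removal; which exons were deleted is not stated in the sources used here. Of 12 mTEC markers, 11 had reads in every group; Epcam averaged 759 to 2031 CPM per group, and Ccl21a was listed at 0 in all groups but the gate outside. In mTEClo, replicate 1 of the control, of the Hnf4a-removed and of the Hnf4g-removed cells lay toward the double mutants on the first principal component (-5.06, -11.5 and -45.2, against 13.4 to 39.5 for the other libraries of those groups and -31.8 to -20.2 for the double mutants), and results in mTEClo are also given without these 3 libraries. These 3 libraries were picked from the same counts for lying toward the double mutants. Leaving them out can by itself widen a difference from the double mutants, so calls gained that way are no added support. In bulk samples, fewer cells that express a gene and less RNA per cell cannot be told apart.

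The entero-hepato gate held far more message for particle assembly than the gate outside it. Of the 9 genes, 8 were higher and 0 were lower there by edgeR, where 22.7% of all 16811 genes tested were higher and 44.5% changed in either direction. Together the 9 took 0.349% ± 0.0781 of all reads in the entero-hepato gate and 0.0903% ± 0.00554 outside it (SD, n = 3 each). The median log2 fold change of the 9 was 4.08, beside -0.05 over all genes tested.

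Apoc3, an inhibitor of lipoprotein lipase, stood farthest apart. It was at 765, 536 and 571 CPM in the entero-hepato gate, against 11.2, 11.8 and 7.71 CPM outside it. Every library of the gate was far above every library outside it, a 60.3-fold difference (log2 fold change 5.91, SE 0.20, edgeR adjusted p = 8.21e-07). Apoa4, made by fat-absorbing enterocytes, was at 1389, 803 and 892 CPM in the gate, against 32.0, 35.2 and 24.3 CPM outside it. The groups again did not overlap (log2 fold change 5.06, SE 0.24, edgeR adjusted p = 1.99e-06). Apoa1, the main protein of high density lipoprotein, was at 1136, 734 and 703 CPM in the gate, against 44.1, 51.8 and 50.5 CPM outside it. Replicate 1 of the gate was the highest library for all 3 genes (Apoa1 log2 fold change 4.12, SE 0.20, edgeR adjusted p = 2.00e-06).

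The loading machinery was higher as well. Mttp, which encodes the transfer protein that lipidates APOB, was at 796, 447 and 571 CPM in the entero-hepato gate, against 28.8, 38.9 and 35.1 CPM outside it. The groups lay far apart (log2 fold change 4.12, SE 0.22, edgeR adjusted p = 3.13e-06). Apob itself was at 409, 111 and 159 CPM in the gate, against 16.8, 7.21 and 15.4 CPM outside it. Its libraries varied more than those of Mttp but did not overlap (log2 fold change 4.08, SE 0.52, edgeR adjusted p = 0.000317). Apobec1 was at 415, 353 and 385 CPM in the gate, against 110, 79.5 and 95.3 CPM outside it, a 4.01-fold difference with a narrow spread (log2 fold change 2.00, SE 0.13, edgeR adjusted p = 7.17e-06).

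The other 3 genes differed in how they moved. Apoa2, a second protein of high density lipoprotein, was at 77.1, 39.3 and 96.2 CPM in the entero-hepato gate, against 7.85, 2.84 and 8.31 CPM outside it (log2 fold change 3.46, SE 0.42, edgeR adjusted p = 0.000243). Apoh, a phospholipid-binding plasma protein, was low in both, at 7.34, 16.1 and 8.63 CPM in the gate, against 3.82, 0.437 and 2.43 CPM outside it. It passed (log2 fold change 2.24, SE 0.65, edgeR adjusted p = 0.0211), but the call ended without replicate 2 of the gate or replicate 3 of the cells outside it, with an adjusted p of up to 0.0778, and under the replicate block (0.0515). Apoe, which many tissues besides gut and liver make, was at 632, 532 and 381 CPM in the gate, against 662, 572 and 615 CPM outside it. The Apoe ranges overlapped and the difference did not pass (log2 fold change -0.27, SE 0.16, edgeR adjusted p = 0.205).

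Per length, the order of the 9 genes was not the same in the 2 gates. In the entero-hepato gate, CPM per kilobase of exon were highest for Apoa1 at 694 ± 195, Apoc3 at 616 ± 122 and Apoa4 at 566 ± 174, whose spreads overlap, ahead of Apoe at 241 ± 59.1 (SD, n = 3). Outside the gate Apoe led at 288 ± 20.9, with Apoa1 at 39.5 ± 3.32 and Apoc3 at 10.1 ± 2.19 CPM per kilobase. Apob was near the bottom on this scale in both, at 16.3 ± 11.5 in the gate and 0.942 ± 0.371 CPM per kilobase outside it.

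**Figure D1:**
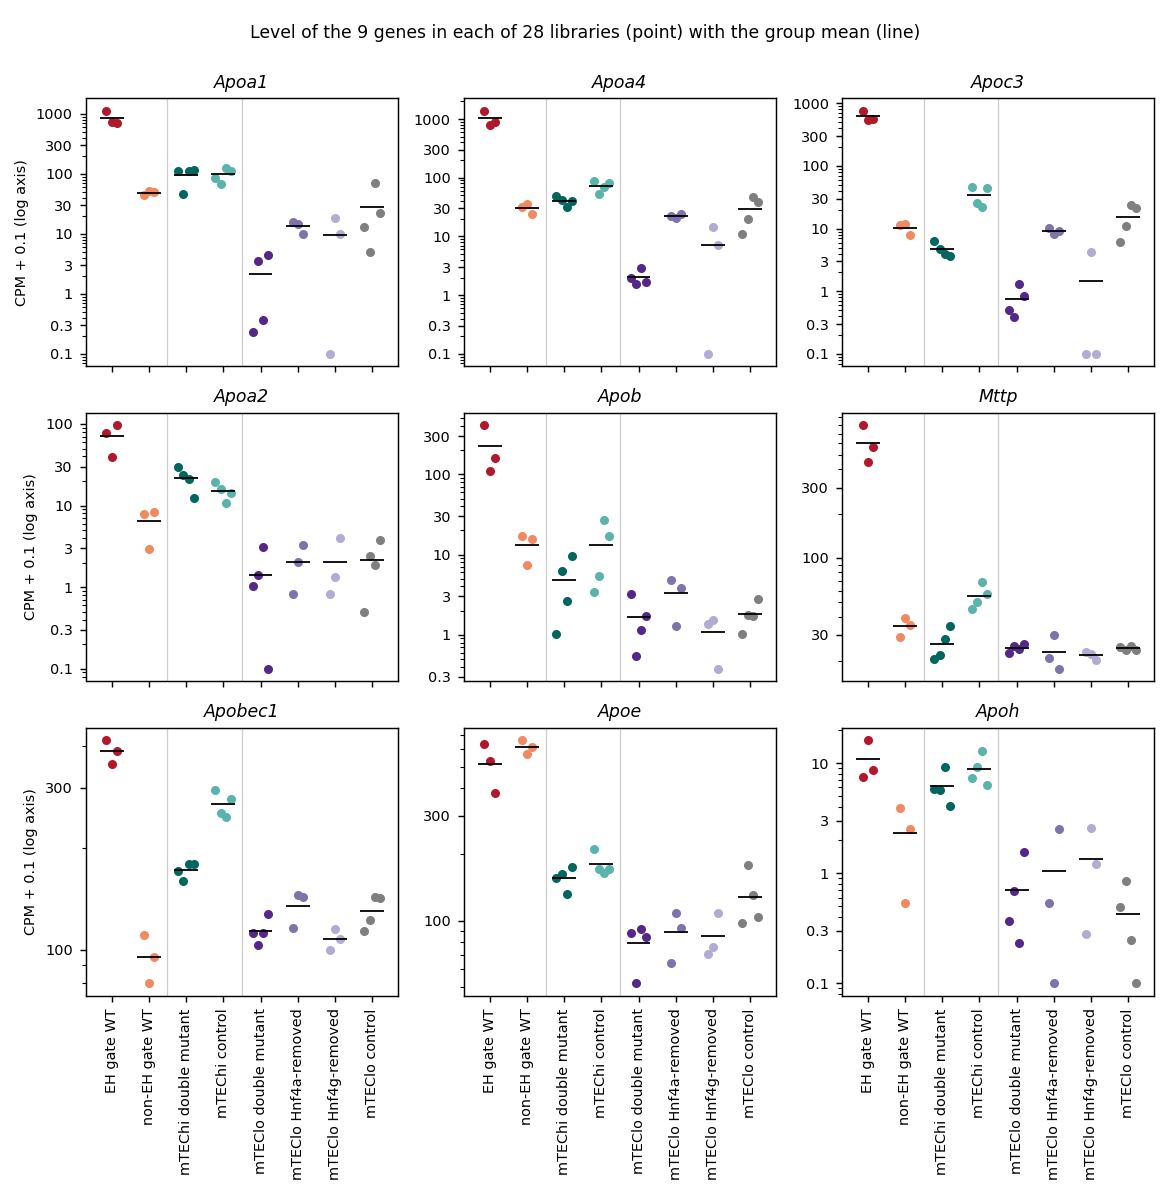
Level of each of the 9 genes as CPM + 0.1 on a log axis in each of 28 libraries (points) by group, with the group mean as a line. In the entero-hepato gate (EH gate) 8 genes lie above the non-EH gate, Apoe does not; in mTEChi, Apoc3, Mttp and Apobec1 of the double mutant lie below every control library, as does Apoa4.

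Markers of mTEC and of other cells also differed between the gates. The 12 mTEC markers summed to 31088.5 to 34758 CPM in the entero-hepato gate against 17497 to 18422 outside it, with 6 of 11 tested higher and 3 lower. The summed level of 12 enterocyte markers was 6232 to 9218 CPM in the entero-hepato gate against 395 to 420 outside it, with 10 of the 12 higher by edgeR. That of 12 hepatocyte markers was 720 to 1723 CPM against 110 to 156, with 2 of 10 tested higher and 1 lower. Among blood cells, 19 myeloid and dendritic markers summed to 1286 to 1674 CPM in the gate against 523 to 704, and 7 erythroid markers to 177 to 255 against 19.7 to 34.1. Higher in the gate were also 5 of 9 endothelial, 4 of 8 cortical epithelial, 2 of 7 B cell, 1 of 10 thymocyte and 1 of 12 fibroblast markers, against 1, 1, 1, 0 and 3 lower. The part of these cells in the values of the 9 genes was not tested.

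In double-mutant mTEChi, Apoc3 of the chromosome 9 cluster fell, as did Mttp and Apobec1. Its neighbours Apoa1 and Apoa4 did not pass the test, and no planned test compared the effect between the genes of the cluster. Of the 9 genes, 3 were lower in double-mutant mTEChi (Apoc3, Mttp and Apobec1) and 0 higher, where 0.597% of all 18413 genes tested were lower and 0.038% higher (edgeR). Their median log2 fold change was -0.63, beside 0.01 over all genes tested. The 9 genes took 0.0548% ± 0.00537 of reads in the double mutant and 0.0770% ± 0.00697 in the control (SD, n = 4 each).

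Apoc3 was at 6.15, 4.70, 3.88 and 3.62 CPM in double-mutant mTEChi, against 46.1, 25.2, 22.1 and 43.7 CPM in control mTEChi. Every double-mutant library was under every control library, a 7.46-fold difference (log2 fold change -2.90, SE 0.30, edgeR adjusted p = 0.000789), and the call held in all 13 alternatives run, with an adjusted p of up to 0.00470. Apoa4 was at 48.1, 41.5, 32.1 and 39.6 CPM in double-mutant mTEChi, against 86.9, 53.7, 68.6 and 81.2 CPM in control mTEChi. The groups did not overlap, yet the difference did not pass (log2 fold change -0.84, SE 0.17, edgeR adjusted p = 0.0564); it passed without control replicate 2 (adjusted p = 0.0298) and by DESeq2 (0.00132). Apoa1 was at 110, 46.7, 113 and 114 CPM in double-mutant mTEChi, against 86.0, 68.5, 128 and 112 CPM in control mTEChi. Apart from the low double-mutant replicate 2, the Apoa1 values ran together (log2 fold change -0.03, SE 0.26, edgeR adjusted p = 0.981).

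Read ratios within a library use the same reads without a scaling between libraries. They were chosen after the values were seen and are given as a description. An exact permutation test was also run on them, 6 tests in all, and none passed (Benjamini-Hochberg adjusted p = 0.0857 to 0.143). Between the gates, with 3 libraries each, its smallest possible p is 0.1, so it could not pass there. In mTEChi, with 4 libraries each, its smallest possible p is 0.0286, which both Apoc3 ratios reached. After adjustment over the 6 tests, that p could not fall under 0.05 either. The outcome was thus fixed in advance, and nothing is drawn from it. Apoc3 reads were 0.0316 to 0.101 of Apoa1 reads in double-mutant mTEChi and 0.173 to 0.536 in control mTEChi. Against Apoa4 they were 0.0915 to 0.128 in the double mutant and 0.322 to 0.539 in the control. The groups did not overlap in either ratio. The ratio of Apoa4 to Apoa1 was 0.283 to 0.888 in the double mutant and 0.536 to 1.01 in the control and overlapped. Between the wild-type gates all 3 ratios lay apart in the other direction: Apoc3 was 0.674 to 0.812 of Apoa1 reads in the entero-hepato gate and 0.153 to 0.255 outside it.

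**Figure D2:**
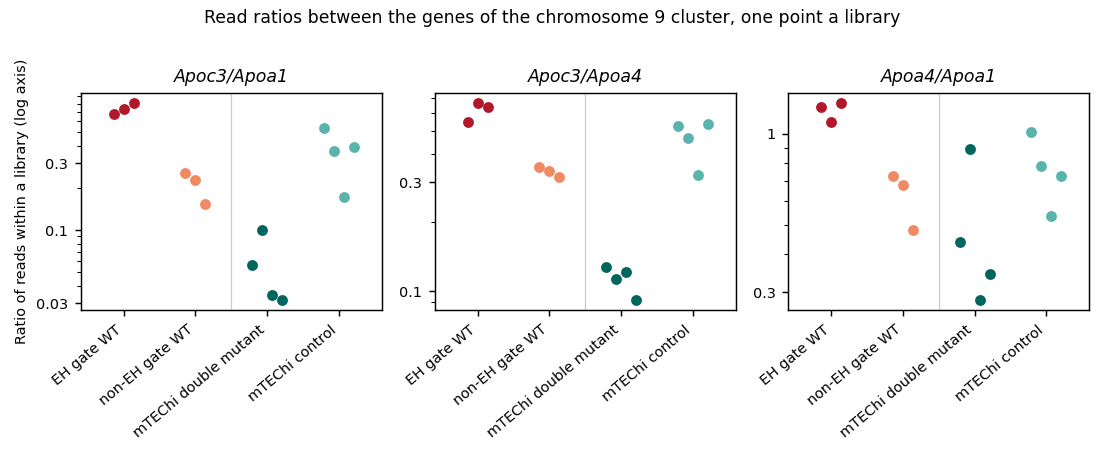
Ratio of reads between pairs of genes of the chromosome 9 cluster within each library (points, log axis), for the wild-type gates and mTEChi. Apoc3 relative to Apoa1 is at 0.0316 to 0.101 in double-mutant mTEChi, under all control libraries at 0.173 to 0.536, while Apoa4 relative to Apoa1 overlaps between those groups.

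Mttp was at 20.5, 21.7, 28.2 and 34.2 CPM in double-mutant mTEChi, against 44.8, 50.2, 68.2 and 57.0 CPM in control mTEChi. No library of the double mutant reached the lowest control, a 2.09-fold difference (log2 fold change -1.07, SE 0.20, edgeR adjusted p = 0.0300). The Mttp call was lost when any of control replicates 2, 3 and 4 or of double-mutant replicates 1 and 2 was left out, with an adjusted p of up to 0.118. Apobec1, the editing enzyme, was at 171, 159, 179 and 179 CPM in double-mutant mTEChi, against 295, 253, 246 and 279 CPM in control mTEChi. The groups lay apart with little spread, a 1.55-fold difference (log2 fold change -0.63, SE 0.10, edgeR adjusted p = 0.0100); the call ended without control replicate 4 (adjusted p = 0.0546).

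Apob, on which both act, was at 0.923, 6.05, 2.50 and 9.61 CPM in double-mutant mTEChi, against 3.31, 5.30, 26.6 and 16.8 CPM in control mTEChi. Its libraries spread over more than their group difference and overlapped (log2 fold change -1.44, SE 0.70, edgeR adjusted p = 0.475). Apoa2 was at 30.0, 23.4, 20.9 and 12.1 CPM in double-mutant mTEChi, against 19.1, 15.9, 10.8 and 14.04 CPM in control mTEChi, overlapping (log2 fold change 0.54, SE 0.28, edgeR adjusted p = 0.507). Apoe, at 157 ± 18.6 CPM in the double mutant and 180 ± 21.7 CPM in the control, and Apoh, at 6.09 ± 2.17 and 8.78 ± 2.86 CPM, did not pass either (SD, n = 4 each; edgeR adjusted p = 0.599 and 0.641). Enterocyte markers summed to 344 to 424 CPM in double-mutant mTEChi against 852 to 1033 in the control, with 6 of 10 tested lower, and hepatocyte markers to 78.4 to 182.6 against 301 to 353 CPM, with 4 of 10 tested lower; the 12 mTEC markers summed to 28022 to 32280 against 32035 to 33322 CPM. None of the tested mTEC, cortical epithelial, myeloid, thymocyte, B cell, endothelial, fibroblast or erythroid markers was called by edgeR in the double mutants of either subset. That does not show equal parts of these cells, and in double-mutant mTEClo several of these lists were lower as sets, as given below. The part of enterocyte and hepatocyte transcripts in the values of the 9 genes was not tested.

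In mTEClo the group means of the 3 genes of the cluster were lowest in the double mutant, overlapping the Hnf4g-removed cells, and the levels of Mttp ran together with those of the control. Of the 9 genes, 2 were lower in double-mutant mTEClo (Apoa4 and Apoc3) and 0 higher, where 0.581% of all 18775 genes tested were lower and 0.16% higher (edgeR). Their median log2 fold change was -0.62, beside -0.00 over all genes tested. Marker lists of other cells had medians of -0.69 (cortical epithelial), -0.52 (fibroblast), -0.50 (myeloid), -0.14 (B cell), -0.02 (endothelial) and 0.03 (thymocyte). The mTEC list had -0.51, and the erythroid list -0.90 from 2 tested markers. Cortical epithelial markers summed to 158 to 189 CPM in double-mutant against 202 to 366 in control mTEClo. The part of these shifts in the values of the 9 genes was not tested. The comparisons of the double mutant and of each single mutant share the control libraries.

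Apoa4 was at 1.88, 1.46, 2.78 and 1.61 CPM in double-mutant mTEClo, against 11.02, 19.9, 46.8 and 38.0 CPM in control mTEClo. Every double-mutant library was under the lowest control library, which was replicate 1, a 14.8-fold difference (log2 fold change -3.89, SE 0.70, edgeR adjusted p = 0.0174). Apoc3 was at 0.403, 0.291, 1.19 and 0.730 CPM in double-mutant mTEClo, from 3, 2, 9 and 5 reads, against 6.11, 10.8, 24.1 and 21.1 CPM in control mTEClo. The groups did not overlap, a 23.0-fold difference resting on few reads in the double mutant (log2 fold change -4.52, SE 0.88, edgeR adjusted p = 0.0232). Apoa1 was at 0.134, 3.49, 0.265 and 4.38 CPM in double-mutant mTEClo, against 12.7, 4.85, 70.7 and 22.4 CPM in control mTEClo. It spread widely within both groups and did not pass (log2 fold change -3.75, SE 1.02, edgeR adjusted p = 0.120), though the ranges did not overlap.

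Both calls in mTEClo were sensitive to single libraries. Those of Apoa4 and Apoc3 ended without control replicate 3, control replicate 4 or any 1 of the 4 double-mutant libraries, with adjusted p of up to 0.0626 for Apoa4 and 0.0861 for Apoc3, and by limma voom (0.125 and 0.0779). Without the 3 libraries that stood apart, both passed (edgeR adjusted p = 0.000146 and 0.00505) and Apoa1 passed too (log2 fold change -3.99, adjusted p = 0.0256). As those libraries were picked for lying toward the double mutants, this is no added support.

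Mttp, by contrast, was at 22.6, 25.3, 24.1 and 25.8 CPM in double-mutant mTEClo, against 24.6, 23.5, 25.3 and 23.7 CPM in control mTEClo. The libraries interleaved (log2 fold change 0.01, SE 0.15, edgeR adjusted p = 0.990). Apobec1 was at 114 ± 10.2 CPM in double-mutant and 130 ± 14.6 CPM in control mTEClo, and Apoe at 78.9 ± 18.3 and 128 ± 37.5 CPM (SD, n = 4 each); neither passed (edgeR adjusted p = 0.479 and 0.180). Apoa2, Apob and Apoh were low in mTEClo, with means of 0.326 to 3.18 CPM over the 4 genotypes and as few as 9 reads of Apoh in all control libraries together; none of them passed in double-mutant mTEClo (edgeR adjusted p = 0.854, 0.958 and 0.845).

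Removing 1 Hnf4 gene did not give a call in the set. In Hnf4a-removed mTEClo, 0 of the 9 genes were called against control (0.00533% of all genes called by edgeR; 1 of the 9, Apoe, at an unadjusted p under 0.05, beside 6.02% of all genes; 0 by DESeq2 and by limma voom). In Hnf4g-removed mTEClo also 0 were called (0.0959% of all genes; 4 of the 9, Apoa4, Apoc3, Apoe and Apobec1, at an unadjusted p under 0.05, beside 8.19% of all genes; 0 by DESeq2 and by limma voom). Apoc3 was at 10.2, 8.27 and 8.97 CPM in Hnf4a-removed and at 0, 4.06 and 0 CPM in Hnf4g-removed mTEClo, against 6.11 to 24.1 CPM in the control. All Hnf4a-removed libraries lay within the control range (log2 fold change -0.77, SE 0.77, edgeR adjusted p = 0.930), and all Hnf4g-removed libraries lay under it (-3.55, SE 0.93, edgeR adjusted p = 0.229). Without Hnf4g-removed replicate 2, whose removal leaves that group at 0 reads, Apoc3 passed against control and against the Hnf4a-removed cells (edgeR adjusted p = 0.0104 and 0.0148).

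Apoa4 followed the same order, at 21.8, 20.5 and 24.3 CPM in Hnf4a-removed and 0, 14.3 and 7.08 CPM in Hnf4g-removed mTEClo, against 11.02 to 46.8 CPM in the control (log2 fold change -0.39, SE 0.63, and -2.02, SE 0.69; edgeR adjusted p = 0.966 and 0.406). Replicate 1 of the Hnf4g-removed cells, 1 of the libraries that stood apart, had no read of Apoa1, Apoa4 or Apoc3 at 5504278 total counts, which allows up to 0.539 CPM each at 3 counts. Set against each other, 0 of the 9 genes were called between the double mutant and the Hnf4a-removed cells. Of all genes, 0.261% were lower, 0.032% higher and 0.293% changed in either direction. At an unadjusted p under 0.05 were 3 of the 9, beside 10.96% of all genes. DESeq2 called 1, Apoa4, and limma voom 0. By edgeR, Apoa4 came nearest (log2 fold change -3.50, SE 0.72, edgeR adjusted p = 0.0547). Between the double mutant and the Hnf4g-removed cells 0 were called (0.0107% of all genes; 1 of the 9 at an unadjusted p under 0.05, beside 10.3% of all genes; 0 by DESeq2 and limma voom), as between the Hnf4a-removed and the Hnf4g-removed cells (0.0586% of all genes higher and 0.0639% in either direction; 4 of the 9 at an unadjusted p under 0.05, beside 7.71% of all genes; 0 by DESeq2 and limma voom). Without the 3 libraries that stood apart, Apoa4 and Apoc3 passed as lower in the double mutant than in the Hnf4a-removed cells, and Apoa4 as lower than in the Hnf4g-removed cells (log2 fold change -3.50, -3.65 and -2.43). The last also passed without Hnf4g-removed replicate 1 alone (edgeR adjusted p = 0.0452). All 3 libraries were picked for lying toward the double mutants, and Hnf4g-removed replicate 1 had no read of Apoa4, so these calls are no added support. Enterocyte markers summed to 243 to 314 CPM in double-mutant, 456 to 666 in Hnf4a-removed and 262 to 321 in Hnf4g-removed mTEClo, against 548 to 763 in the control; mTEC markers summed to 5583 to 6089 CPM in the double mutant against 6846 to 10618 in the control. They summed to 6104 to 10787 CPM in Hnf4a-removed mTEClo. In Hnf4g-removed replicate 1, without a read of the cluster genes, they summed to 4469, against 9629 and 10778 in replicates 2 and 3. Cortical epithelial markers summed to 99.2 CPM in replicate 1 against 266 and 242, and enterocyte markers to 288 against 321 and 262. In the double mutant 6 of 11 tested enterocyte and 2 of 8 hepatocyte markers were lower. Their part was not tested.

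**Figure D3:**
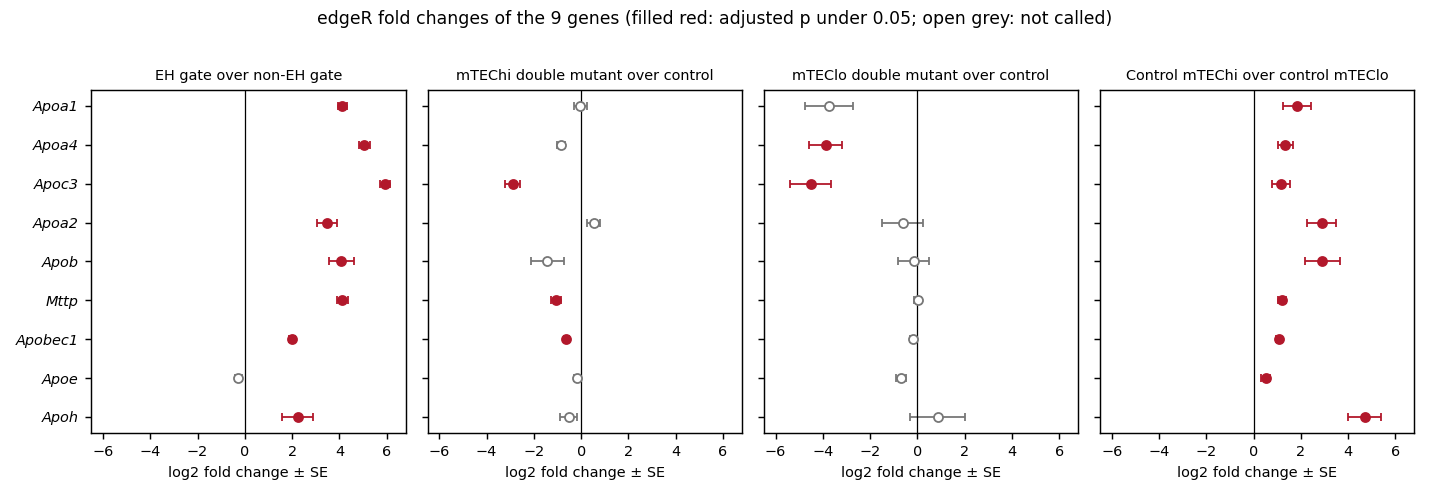
Log2 fold change ± SE by edgeR of each of the 9 genes in 4 comparisons; filled red points passed an adjusted p of 0.05. The entero-hepato gate shows 8 genes to the right. Called to the left in the double mutants are Apoc3 in both subsets, Mttp and Apobec1 in mTEChi and Apoa4 in mTEClo. Control mTEChi lies right of control mTEClo for all 9.

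Control mTEChi carried more of these transcripts than control Post-Aire mTEClo. The sample numbers of the mTEChi libraries form a block of their own, apart from those of all other groups. A difference between subsets, in controls or in double mutants, cannot be told apart from any difference in handling between these blocks. In controls, 9 of the 9 genes were higher in mTEChi than in mTEClo, where 22.4% of all 20095 genes tested were higher (edgeR). Apoh was at 7.16, 9.13, 12.7 and 6.17 CPM in control mTEChi, against 0.398, 0.758, 0.148 and 0 CPM in control mTEClo. The subsets lay wide apart on this gene (log2 fold change 4.69, SE 0.71, edgeR adjusted p = 4.50e-05). Apob followed with a log2 fold change of 2.91 (SE 0.74), Apoa2 with 2.87 (SE 0.60), Apoa1 with 1.84 (SE 0.58) and Apoa4 with 1.34 (SE 0.31). Mttp, Apoc3, Apobec1 and Apoe were higher by 1.19, 1.15, 1.05 and 0.50 (edgeR adjusted p = 1.98e-05, 0.0212, 1.93e-07 and 0.0371). The Apoe call ended without any 1 of control mTEClo replicates 1, 3 and 4 or control mTEChi replicates 1, 2 and 4, that of Apoc3 without mTEClo replicate 1 or 2 or mTEChi replicate 1 or 4, and that of Apoa1 without mTEClo replicate 1 (adjusted p of up to 0.128, 0.0719 and 0.0547). Without the 3 libraries that stood apart, of which control mTEClo replicate 1 is the one in this comparison, all 3 calls were lost; that of Apoa1 was also lost by DESeq2 (adjusted p = 0.0720) and that of Apoe under the replicate block (0.0602). The mTEC markers summed to 32035 to 33322 CPM in control mTEChi against 6846 to 10618 in control mTEClo, with 8 of 11 tested higher and 2 lower. Markers of other cells differed too: myeloid and dendritic markers summed to 1790 to 2285 CPM in control mTEChi against 511 to 838 in control mTEClo, with 12 of 18 tested higher, and 8 of 12 thymocyte, 7 of 8 B cell and 7 of 10 hepatocyte markers were higher. Each of these lists also had 1 tested marker lower. Fibroblast and pericyte markers summed to 755 to 849 CPM in control mTEChi against 152 to 289 in control mTEClo, cortical epithelial markers to 1152 to 1299.8 against 202 to 366, enterocyte markers to 852 to 1033 against 548 to 763, and endothelial markers to 69.6 to 90.4 against 141 to 180.02. Higher were 8 of 12, 6 of 8, 5 of 11 and 1 of 8 of those tested, and 1, 0, 1 and 2 were lower. The tested endothelial markers had a median log2 fold change of 0.68, though their list was lower in sum. The part of all these markers was not tested.

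In double mutants, 7 of the 9 genes were higher in mTEChi than in mTEClo, where 27.7% of all genes were higher and 50.8% changed in either direction (edgeR). The 2 that did not pass were Mttp, at 26.1 ± 6.37 CPM in double-mutant mTEChi and 24.5 ± 1.46 CPM in double-mutant mTEClo (SD, n = 4 each; log2 fold change 0.11, SE 0.17, edgeR adjusted p = 0.618), and Apob (1.62, SE 0.73, adjusted p = 0.0740); Apob passed without replicate 1 of either double-mutant group (adjusted p = 0.0381 without that of mTEClo and 0.0317 without that of mTEChi). Apoa1 had a log2 fold change of 5.58 (SE 0.76) and Apoa4 of 4.37 (SE 0.40) between the double-mutant subsets. Sums of several other marker lists were also higher: myeloid and dendritic markers summed to 1661 to 2008 CPM in double-mutant mTEChi against 326 to 646 in double-mutant mTEClo, fibroblast and pericyte markers to 538 to 926 against 99.2 to 155, and cortical epithelial markers to 1036 to 1181 against 158 to 189. Higher were 14 of 18, 10 of 12 and 8 of 8 of those tested, and 1, 1 and 0 were lower. Enterocyte markers summed to 344 to 424 against 243 to 314 CPM and hepatocyte markers to 78.4 to 182.6 against 18.8 to 72.9. Thymocyte markers summed to 77.8 to 118 against 45.7 to 56.9, and erythroid markers to 38.4 to 53.3 against 10.7 to 14.5. Endothelial sums went the other way, at 76.8 to 98.6 against 149 to 207 CPM. B cell sums overlapped, at 135 to 147 against 123 to 144. The mTEC markers summed to 28022 to 32280 CPM in double-mutant mTEChi against 5583 to 6089 in double-mutant mTEClo, with 8 of 11 tested higher and 2 lower. The part of all these markers was not tested.

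The test of whether the double-mutant effect differed between the subsets gave 1 call among the 9 genes, where 0.0398% of all genes tested were called as higher, 0.0199% as lower and 0.0597% in either direction (edgeR). It was Apoa4, whose double-mutant effect was less negative in mTEChi than in mTEClo by 3.03 on the log2 scale (SE 0.50, edgeR adjusted p = 0.0323). The call ended without any 1 of 10 of the 16 libraries, with an adjusted p of up to 0.0852, and under the replicate block (0.0621) and by limma voom (0.204). Apoa1 had the widest point difference (3.73, SE 0.95) and Mttp the opposite sign (-1.08, SE 0.24), and neither passed (edgeR adjusted p = 0.132 and 0.0883), though Mttp did without double-mutant mTEChi replicate 3 or 4 (0.0451 and 0.0478). For Apoc3 the difference was 1.62 (SE 0.64, edgeR adjusted p = 0.331), so a difference between subsets was not shown.

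Other genes of the pathway, 101 in 8 lists, were counted beside the set. In the entero-hepato gate 55 of 91 tested were higher and 5 lower, beside 22.7% higher and 21.8% lower over all genes; their median log2 fold change was 1.16 against -0.05. In fat uptake and resynthesis 14 of 16 tested were higher and 1 lower: Dgat2, which makes triglyceride, was at 1097 ± 152 CPM in the gate and 163 ± 17.8 outside it, and Soat2, which esterifies cholesterol, at 327 ± 54.5 and 37.0 ± 10.8 CPM (SD, n = 3 each). The lower gene was Gpat4. In assembly and secretion 8 of 13 were higher, among them Cideb, a lipid droplet protein needed for full lipidation of particles, at 53.6 ± 11.6 CPM in the gate and 2.19 ± 0.751 outside it. The partner of APOBEC1 in editing, A1cf, was at 18.8 ± 2.30 CPM in the gate and 0.489 ± 0.430 outside it (log2 fold change 5.17, SE 0.59, edgeR adjusted p = 0.000164), and Rbm47, another cofactor, was higher by 1.38 (SE 0.10).

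Of 4 genes of sterol export 3 were higher and 1 lower. Abcg5 and Abcg8, whose products together pump sterols out of the cell, were higher by 4.80 and 5.10 on the log2 scale, while Abca1, which lipidates APOA1, was lower at 54.6 ± 3.32 CPM in the gate and 79.9 ± 7.96 outside it (log2 fold change -0.56, edgeR adjusted p = 0.00437). Creb3l3, a transcription factor of liver and gut that acts on Apoa4 and Apoc2 in mouse, was at 143 ± 42.9 CPM in the gate and 2.03 ± 1.41 outside it. Among lipases and remodelling proteins 10 of 17 were higher and 2 lower; Saa1 and Saa3, acute-phase apolipoproteins, were higher by 4.27 and 4.33, and Pltp and Lipg lower by a log2 fold change of -3.30 and -2.21. Among 5 other apolipoproteins tested, Clu, Apoc4 and Apoc1 were higher. Of the transcription factors 10 of 18 tested were higher, of the receptors 4 of 12, and of the editing genes 3 of 6 with 1 lower.

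In double-mutant mTEChi 4 of 92 tested (4.35%) were lower and 0 higher, beside 0.597% lower over all genes: Soat2 was at 17.7 ± 1.19 CPM in the double mutant and 88.1 ± 6.49 CPM in the control (log2 fold change -2.31, SE 0.13, edgeR adjusted p = 6.95e-06), Cideb at 0.415 ± 0.447 and 6.60 ± 2.16 CPM, Fabp1, the fatty acid binding protein of liver and gut, at 6.41 ± 1.71 and 24.7 ± 3.94 CPM, and Abcg5 at 14.6 ± 3.14 and 33.9 ± 6.05 CPM (SD, n = 4 each). In double-mutant mTEClo 2 of 90 tested (2.22%) were lower, beside 0.581% over all genes: Fabp1 at 3.08 ± 0.529 CPM in the double mutant and 28.1 ± 13.9 CPM in the control (log2 fold change -3.18, SE 0.35, edgeR adjusted p = 0.000700) and Abcg5 at 2.19 ± 0.0677 and 9.68 ± 4.32 CPM (-2.13, SE 0.44, adjusted p = 0.0346). In Hnf4g-removed mTEClo, Fabp1 alone of 90 was lower, beside 0.0959% over all genes, at 2.96 ± 0.367 CPM (n = 3; log2 fold change -3.24, SE 0.40, edgeR adjusted p = 0.00499).

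**Figure D4:**
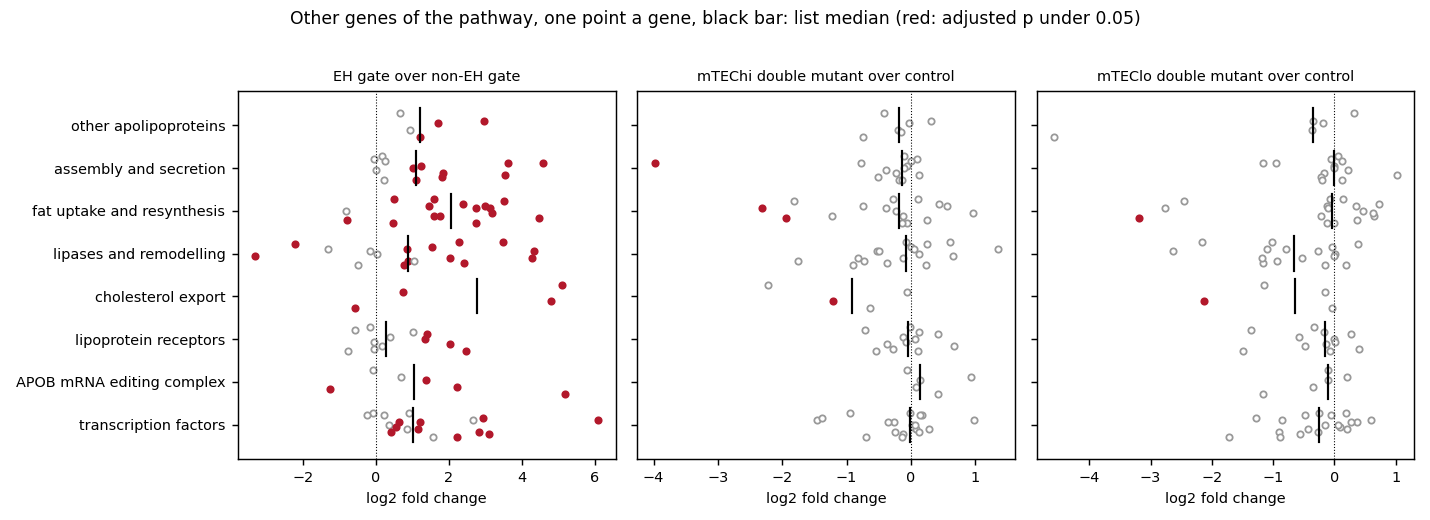
Log2 fold change by edgeR of the tested genes of 8 other lists of lipid transport genes (one point a gene, red where adjusted p was under 0.05; black bar, list median) in the entero-hepato gate over the gate outside it and in double-mutant over control mTEChi and mTEClo. The list medians lie right of 0 in the gates, and 4 genes in mTEChi and 2 in mTEClo passed, all lower in the double mutant.

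Of 42 annotated genes within 50 kb of a member that are not members, 23 were tested between the gates, and 6 were higher and 6 lower, 26.1% each way, near the 22.7% and 21.8% over all genes. Near Apoe, Nectin2 was higher by 2.39 (SE 0.14), Apoc4 by 2.98 (SE 0.62) and Apoc1 by 1.203 (SE 0.38), and Tomm40 was lower (-0.61, SE 0.17), around Apoe itself which did not pass. Near Apoa4, Zpr1 and Bud13 were lower (-0.41 and -0.64); near Apoa2, Fcer1g, which is a myeloid marker, was higher (1.81) and Pcp4l1 and Ppox lower (-1.50 and -0.55). Prkca, which overlaps Apoh, was higher by 1.08 and Cep112 lower (-1.74). In double-mutant mTEChi and mTEClo 0 of 24 tested neighbours were called by edgeR. Apoa5, the fourth apolipoprotein gene of the chromosome 9 region, was at 2.98 ± 0.936 CPM in double-mutant and 5.07 ± 4.17 CPM in control mTEChi, and at 0.106 ± 0.0712 and 2.91 ± 2.96 CPM in mTEClo (SD, n = 4 each), and passed in neither (edgeR adjusted p = 0.704 and 0.186).

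Across the 28 libraries the 9 genes fell into looser and tighter pairs, given here as a description since the libraries share groups, sorts and depth. Pearson's r of log2 CPM was 0.939 between Apoa4 and Apoc3, 0.933 between Apoa1 and Apoa4, 0.882 between Apob and Mttp and 0.828 between Apoa1 and Apoc3. The lowest was 0.390, between Apoe and Apobec1. Of 17086 genes, the 3 most like Apoa4 were Adgrd1 (0.955), Prap1 (0.954) and Tm4sf5 (0.950), those most like Apoc3 were Ms4a10 (0.954), Lypd8 (0.950) and Adgrd1 (0.945), and those most like Apoa1 were Tm4sf5 (0.967), Slc6a4 (0.935) and Apoa4 (0.933). Mttp was most like Net1 (0.979), Cyb5b and Atp2b1, Apob most like Mlxipl (0.926), Slc20a1 and Ehhadh, and Apobec1 most like Serpinb9 (0.964), Psmb8 and Rbbp7. Apoe was most like Tns3 (0.946), Trp63 and Col4a1, Apoa2 most like Slc3a2 (0.950), Samhd1 and Glb1, and Apoh most like Nkg7 (0.900), Gal3st2 and H2-DMa.

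In the order of group means, the entero-hepato gate came first for 8 genes, and for 7 of these its libraries did not overlap the next group; Apoh of the gate overlapped control mTEChi. For Apoe the gate outside came first at 617 ± 44.7 CPM, overlapping the entero-hepato gate at 515 ± 126 CPM, and both lay above all other groups, of which control mTEChi was next at 180 ± 21.7 CPM. These last values set wild-type mice beside Foxn1cre mice and were not tested. The double-mutant mTEClo came last for Apoa1, Apoa4, Apoc3, Apoa2 and Apoe, and overlapped the group above it for each of these 5. For Apobec1 the gate outside came last at 95.0 ± 15.3 CPM, overlapping Hnf4g-removed mTEClo at 107 ± 7.49 CPM.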

How the data were processed

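Read counts per gene, whole numbers that the authors had not normalized, were deposited as 1 table of 55011 genes in 28 libraries; per the submitters' processing notes STAR 2.7.3a, featureCounts and the build mm10 were used, and neither the annotation nor how reads were counted is stated there. Per the labels' protocols, 1000 cells a library were sorted, polyadenylated RNA was copied to cDNA, amplified, tagmented and amplified again for 18 cycles and read as pairs of 38 bases, without molecular identifiers, so counting limits cover counting error only. Every column matched 1 sample title. Titles number the libraries of a group, but nothing states that each library is another mouse, so the p-values reflect how far these libraries vary, perhaps for technical reasons; no pair of the 36 replicate pairs held identical values, and none agreed within sampling noise (chi-square per degree of freedom 5.93 to 24.2).

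Genes were filtered (filterByExpr, minimum count 10, minimum total 15) and tested with edgeR 4.0.16 in R 4.3.3 (TMM, quasi-likelihood test), in separate fits for the gates (6 libraries), mTEClo (14), mTEChi (8) and comparisons across subsets (16). CPM use TMM over all libraries. Alternatives were other size factors, DESeq2 1.42.0, limma 3.58.1 (voom), no filter, only the groups compared, a replicate block and each library left out; leaving out 3 libraries was added after seeing the data. The edgeR step was tested on simulated data. Positions, exon lengths and overlaps come from GENCODE M21 (GRCm38), promoters from RefSeq.

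The 9 genes and all lists were chosen with earlier results of these data known. Named are the 9 genes, up to 4 called genes per list and direction of smallest p, the 3 genes of highest correlation with each member and called neighbours within 50 kb; the text gives a selection, and 1 called neighbour is not reported here.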

Additional observations from a re-analysis of the deposited data

Results flagged for a closer look

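Within groups of 4 libraries, 36 combinations of gene and group were checked for a library far from the rest, and 2 stood out; chance flags about 1 in 20 groups. Apoa1 in double-mutant mTEChi had a lowest library of 46.7 CPM (replicate 2) against 110 to 114 CPM in the other 3. Apoe in control mTEChi had a highest library of 212.5 CPM (replicate 1) against 165 to 172 CPM in the other 3. Without that library, neither gene passed between double-mutant and control mTEChi (edgeR adjusted p = 0.833 for Apoa1 and 0.800 for Apoe).

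The effect of removing both Hnf4 genes on Apoa4 differed between the subsets by a test of the difference itself, being less negative in mTEChi than in mTEClo by 3.03 on the log2 scale (edgeR adjusted p = 0.0323). Apoa4 was lower in 4 of 4 double-mutant libraries than in every control library in both subsets. Over the 22 alternatives for this difference the adjusted p was 8.23e-07 to 0.204.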

How the results depend on the processing

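The 9 genes were recomputed in the 11 comparisons under the alternatives that apply to each, 1418 values in all; 13 further values in mTEClo comparisons could not be had because the gene did not pass the filter there. No called gene changed sign; 361 calls held, 51 were lost and 38 values passed that had not, while 922 uncalled values kept and 46 uncalled values changed their sign. Only the larger changes in the counts of genes called are listed here. Smaller ones are left out, such as Apoa4 passing in double-mutant mTEChi and Apoa1 not passing between the control subsets, both by DESeq2. Against the counts of genes called that are given above, DESeq2 called 1 between double-mutant and Hnf4a-removed mTEClo and 2 for the difference between subsets. By limma voom 0 were called in double-mutant mTEClo and 0 for the difference between subsets. Without the low-count filter 4 were called in double-mutant, 1 in Hnf4a-removed and 4 in Hnf4g-removed mTEClo against control, 3 between double-mutant and Hnf4a-removed, 2 between double-mutant and Hnf4g-removed and 2 between the single mutants, 5 in double-mutant mTEChi and 3 for the difference between subsets; the cause was not tested. With only the 2 groups compared in the fit, 2 were called between double-mutant and Hnf4a-removed mTEClo, and without the 3 libraries that stood apart 2 there and 1 between double-mutant and Hnf4g-removed mTEClo. The share of all genes called under each of these settings is not given here, so these counts are no result about the set.

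Leaving out each library in turn gave 7 to 8 genes called between the gates, 0 to 2 in double-mutant, 0 to 0 in Hnf4a-removed and 0 to 1 in Hnf4g-removed mTEClo against control, 0 to 0, 0 to 1 and 0 to 1 for double-mutant against Hnf4a-removed, double-mutant against Hnf4g-removed and Hnf4a-removed against Hnf4g-removed, 1 to 3 in double-mutant mTEChi, 6 to 9 and 7 to 8 for mTEChi against mTEClo in controls and double mutants, and 0 to 2 for the difference between subsets. Over all genes, the same runs called 6301 to 6664 between the gates. In mTEClo against control they called 47 to 207, 0 to 1 and 9 to 23, in the order above. Between the mTEClo mutants they called 7 to 53, 1 to 119 and 2 to 39. In double-mutant mTEChi they called 71 to 188. Across subsets they called 7370 to 8405 in controls, 9453 to 9821 in double mutants and 1 to 157 for the difference.

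The replicate numbers were not taken to pair the libraries, since the labels do not tie them to a shared source and not every pair correlated: over 34 same-numbered pairs the correlation of deviations from the group means was -0.0235 to 0.240, over 0.1 in 3, and in 18 pairs it was highest for the own number, among them all 3 between the gates and all 3 between the single mutants. With the replicate block, 1 gene was called between double-mutant and Hnf4a-removed mTEClo and 0 for the difference between subsets, and Apoh lost its call between the gates (adjusted p = 0.0515). Apoa2, Apob and Apoh rest on 9 to 63 reads per genotype in mTEClo.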
